A study of Homo sapiens with 8 samples.

Results

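The ribosome biogenesis genes described here were 42 genes whose products transcribe ribosomal RNA or process it and assemble it into subunits in the nucleolus. They were taken from a list of 43 gene symbols as the rows of the deposited count table that carried one of those names and had at least 10 reads in some library. The table held 33045 gene names in all, and all 42 genes passed the filter on low counts that left 16060 genes for testing. RRP1B had no row of its own name and is described apart under its older name, KIAA0179. The samples were 8 libraries of bulk RNA from cultured acute myeloid leukemia lines, 1 for each combination of line, agent and time. KASUMI-1, a line with the RUNX1::RUNX1T1 fusion that the design text calls sensitive, was treated with the LSD1 inhibitor DDP38003 at 0.5 µM (LSD1i) or with vehicle and collected at 6 and 72 h. The line it calls resistant is THP-1, of monocytic origin and with a fusion of KMT2A, which received the same agents and was collected at 24 and 72 h. LSD1 (gene KDM1A) is a histone demethylase. The times were picked by the study as those at which the growth kinase mTOR was first and last seen to respond to the inhibitor, so the early time differs between the lines. Sensitivity is represented by 1 line on each side and cannot be told apart from other properties of KASUMI-1 and THP-1. Nothing in the labels tells whether different flasks stand behind the libraries, so a p-value measures only the spread between these samples. That spread, between the 2 pairs of a line and moderated toward that of all genes tested, may be technical. It includes whatever the response does over time.

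Ribosomes are built mainly in the nucleolus. RNA polymerase I transcribes the long precursor of the ribosomal RNAs, and RNA polymerase III makes the short 5S RNA and the transfer RNAs. Small nucleolar ribonucleoproteins methylate and pseudouridylate the precursor, the small subunit processome folds and cuts the part that becomes the 40S subunit, and a separate set of factors matures the 60S subunit. The pathway consumes much of the energy of a growing cell, is driven by the transcription factor MYC and by mTOR signalling, and declines when myeloid cells stop dividing and mature.

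Promoter sequences were available from RefSeq (GRCh38.p14) for 35 of the 42 genes, as the 250 bases before and the 50 bases after each annotated start. BOP1, DDX18, NOLC1, POLR1E, POLR3G, RRP12 and RRS1 had none there. The palindrome CACGTG, the letters of the E-box that MYC and related factors are known to bind, was present in 15 of these 35 genes (42.9%), against 8.77% of the 27305 genes of the promoter table and 12.4% of those that were also tested for expression. It was present in 5 of 10 genes that were lower with LSD1i in KASUMI-1 and in 10 of the 25 other members, in 36.8% of 68 other ribosome biogenesis genes and in 14.3% of 28 S phase genes. CGCGAG or its reverse complement CTCGCG was present in 13 of the 35 (37.1%), against 30.9% of tested genes, and TATAAA or its reverse complement TTTATA in 1 of the 35 (2.86%), against 9.36%. Both strands were searched, CACGTG is its own reverse complement, no motif contains another, and a match says only that the letters are in this window. Of 17 distinct CACGTG sites in the members, 10 began within the first 50 transcribed bases. The sites are printed with 12 bases on each side where the window allowed it, first for every member that was lower with LSD1i in KASUMI-1 and had one, then for an rRNA methylase, a nucleolar helicase and a 60S factor that were not called. Capitals mark CACGTG, each sequence runs 5′ to 3′ on the strand of its gene, and positions count from the annotated first base. RRP9 has its site at position -5 (chr3:51941892-51941921, minus strand), MRTO4 at 15 (chr1:19251807-19251836, plus strand) and LYAR at -64 (chr4:4290068-4290097, minus strand). IMP4 has a site at -203 (chr2:130342682-130342711, plus strand) and another at 16 (chr2:130342900-130342929). EBNA1BP2 has one at -237 of one annotated start (chr1:43172790-43172819, minus strand) and one at 43 of another (chr1:43172241-43172260). FBL has its site at 7 (chr19:39846356-39846385, minus strand), DDX21 at -31 (chr10:68956604-68956633, plus strand) and PES1 at 14 (chr22:30591880-30591909, minus strand).
RRP9: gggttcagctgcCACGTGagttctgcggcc
MRTO4: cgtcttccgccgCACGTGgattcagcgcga
LYAR: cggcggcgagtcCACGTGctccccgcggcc
IMP4, upstream site: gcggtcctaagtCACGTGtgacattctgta
IMP4, downstream site: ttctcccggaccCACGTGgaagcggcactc
EBNA1BP2, upstream site: gatattgttggcCACGTGggatcgaagacc
EBNA1BP2, downstream site: gcgattcggtggCACGTGga
FBL: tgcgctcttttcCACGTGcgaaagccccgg
DDX21: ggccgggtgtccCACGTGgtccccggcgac
PES1: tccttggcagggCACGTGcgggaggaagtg

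The 250 bases upstream are shown for NOP16 and IMP4, 2 of the 4 genes that were called lower in KASUMI-1 and also differed between the lines. NOP16 held none of the 3 motifs in its window (chr5:176388599-176388848, minus strand), while IMP4 held the upstream E-box, in capitals (chr2:130342647-130342896, plus strand). The window of another annotated start of IMP4 (chr2:130343020-130343319), not shown, held no CACGTG and 2 matches to CGCGAG or CTCGCG.
NOP16: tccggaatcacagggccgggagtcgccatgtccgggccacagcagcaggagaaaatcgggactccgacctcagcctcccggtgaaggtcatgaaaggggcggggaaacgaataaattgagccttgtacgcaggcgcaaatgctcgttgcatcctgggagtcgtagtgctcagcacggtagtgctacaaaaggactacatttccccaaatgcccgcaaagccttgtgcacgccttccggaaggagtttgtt
IMP4: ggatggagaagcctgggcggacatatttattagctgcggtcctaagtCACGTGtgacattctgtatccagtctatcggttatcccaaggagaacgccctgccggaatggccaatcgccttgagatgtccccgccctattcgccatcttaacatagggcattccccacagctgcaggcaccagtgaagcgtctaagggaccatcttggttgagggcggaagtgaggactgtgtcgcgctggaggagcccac

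Counted reads per library ranged from 23722972 (KASUMI-1 vehicle at 72 h) to 45970766. Expression is given as read counts scaled to a common library size by TMM (CPM), which compares 1 gene between libraries, and as CPM per kilobase of annotated exon where genes are compared with each other. RUNX1T1 had 76.2 to 106 CPM in the KASUMI-1 libraries and at most 0.20 CPM in those of THP-1. HOXA9, a gene that KMT2A fusions keep active, had 53.2 to 56.3 CPM in THP-1 and at most 1.51 CPM in KASUMI-1, while its partner MEIS1 was at or under 0.11 CPM in every library. KDM1A had 182 and 224 CPM in LSD1i KASUMI-1 cells at 6 and 72 h, against 196 and 264 CPM in vehicle KASUMI-1 cells, and 112 and 93.5 CPM in LSD1i THP-1 cells at 24 and 72 h, against 106 and 110 CPM in vehicle THP-1 cells. DDP38003 acts on the protein, so this transcript does not check the treatment.

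The 42 genes differed widely in level. NPM1, a nucleolar histone and ribosomal protein chaperone, led in all 8 libraries with 894 to 2025 CPM per kilobase. NCL, the nucleolin that binds rRNA precursors, had 264 to 583 and the 2′-O-methylase FBL 125 to 537 on the same scale. NCL lay above FBL in all 4 THP-1 libraries and below it in all 4 KASUMI-1 libraries. At the other end PPAN, a 60S factor, had 1.77 to 3.75 CPM per kilobase, and UTP20, POLR1A and POLR3G had 2.64 to 19.2. PPAN shares 77.0% of its annotated exon length with another name on its strand, where reads were left out, so its level is a partial one. Summed over the 42 genes, the level was 8512 and 8136 CPM in LSD1i KASUMI-1 cells at 6 and 72 h, against 9678 and 9051 CPM in vehicle KASUMI-1 cells. In THP-1 the sums were 7354 and 6138 CPM in LSD1i cells at 24 and 72 h, against 7000 and 6092 CPM in vehicle cells. The summed level was thus lower with LSD1i in both KASUMI-1 pairs and slightly higher in both THP-1 pairs. The THP-1 72 h pair turned with scaling by total count in place of TMM, to a log2 ratio of -0.12, and also over the 40 genes other than NPM1 and NCL, which summed to 3125 CPM with LSD1i, against 3147 CPM with vehicle.

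The first comparison asked how the inhibitor changed these genes in the sensitive line. In KASUMI-1 LSD1i lowered 11 of the 42 genes and raised 1, POLR3G, a subunit of RNA polymerase III (edgeR's quasi-likelihood test, Benjamini-Hochberg adjusted p under 0.05). Of all 16060 genes 5.09% were lower and 7.02% higher. The fitted log2 change was below zero for 41 of the 42, with a median of -0.25, against 0.02 over all genes tested. The 11 were NOP16, RRP9, MRTO4, GRWD1, BOP1, IMP4, IMP3, EBNA1BP2, TSR1, WDR74 and LYAR, of which 6 act in 60S maturation and 4 in the small subunit pathway. In bulk RNA fewer cells of a type and less RNA per cell cannot be told apart. Without the 72 h pair 1 of these 12 calls remained, that of NOP16, and without a term for the pairs none did (10 genes at an unadjusted p under 0.05), while 12 genes were called by DESeq2, all 12 of them the same.

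**Figure D1:**
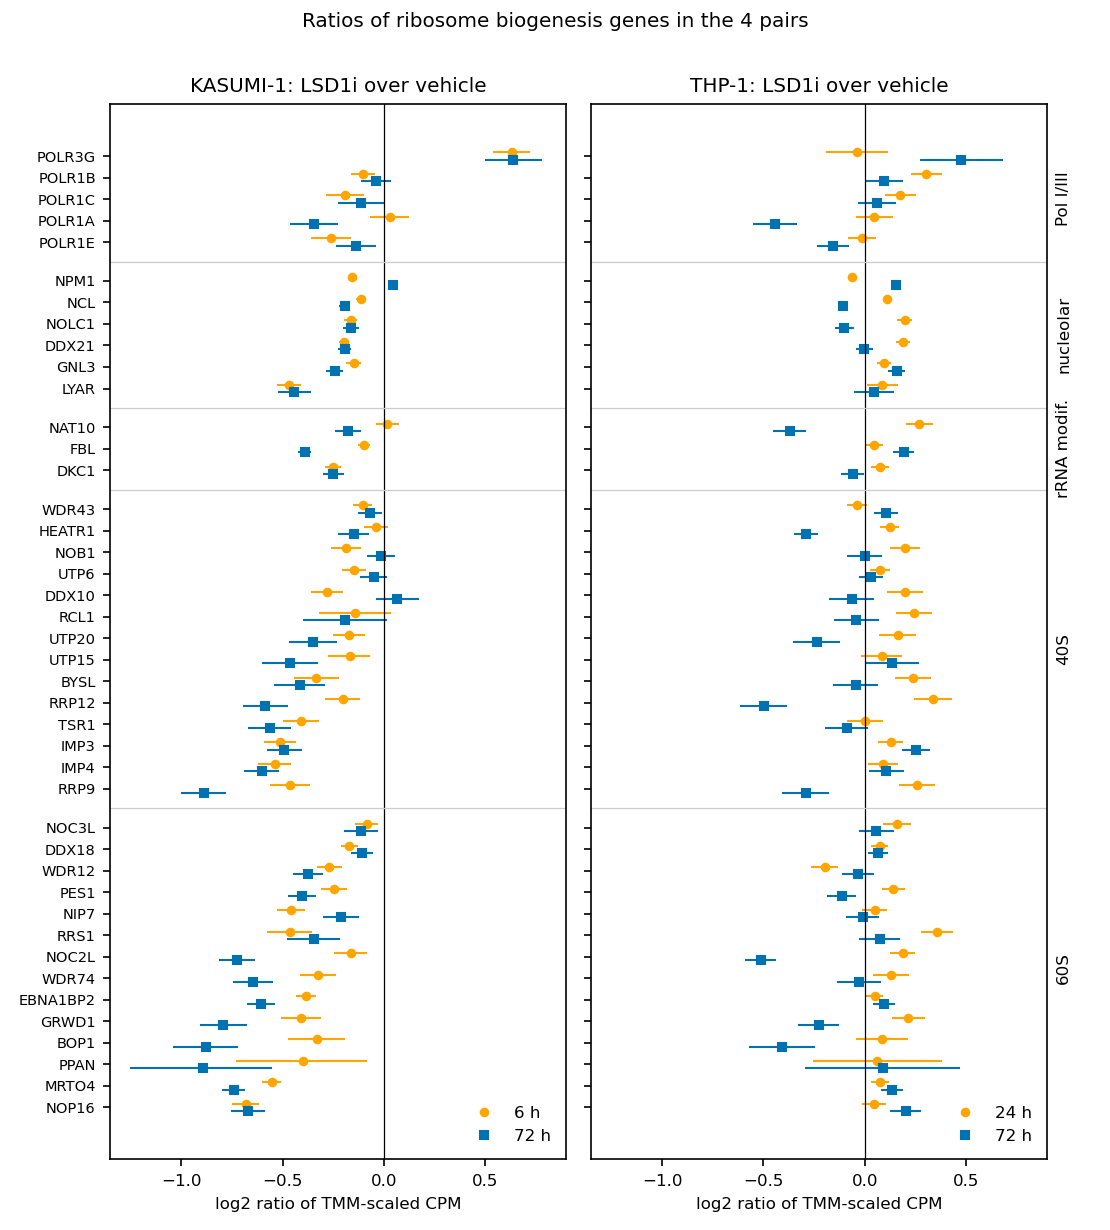
Log2 ratio of LSD1i over vehicle for each of the 42 genes in each pair (points, with 95% counting intervals as lines), KASUMI-1 on the left and THP-1 on the right, grouped by role from RNA polymerases at the top to 60S maturation at the bottom. In KASUMI-1 all 14 genes of 60S maturation lay left of zero at both times (with total count scaling NOC3L moved to 0.02 at 6 h), while in THP-1 5 of the 42 points lay left of zero at 24 h and 23 at 72 h, with medians of 0.10 and -0.01.

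The largest share of calls was in 60S maturation. All 14 genes of this role were below zero in the fit, 6 were called lower, and their median was -0.46. NOP16, a nucleolar protein of the early 60S particle, had 76.0 and 58.5 CPM with LSD1i, against 122 and 93.1 CPM with vehicle at 6 and 72 h. This was the member with the lowest adjusted p, a change of -0.68 ± 0.12 on the log2 scale (± standard error, adjusted p = 0.00202), or 1.60-fold lower. MRTO4, which holds the place of the stalk protein on the early subunit, had 149 and 122 CPM with LSD1i, against 219 and 204 CPM with vehicle (-0.65 ± 0.12, adjusted p = 0.00317). EBNA1BP2, the counterpart of the yeast 60S factor Ebp2, had 146 and 95.4 CPM with LSD1i, against 190.4 and 145 CPM with vehicle (-0.49 ± 0.12, adjusted p = 0.0154). In each of these 3 genes both LSD1i libraries lay below the vehicle library of the same time, and in NOP16 and MRTO4 both lay below both vehicle libraries. In EBNA1BP2 the LSD1i library at 6 h was level with the vehicle library at 72 h.

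BOP1 is a scaffold of the PeBoW complex, which it forms with PES1 and WDR12 and which is needed to process the 60S rRNAs. BOP1 had 19.3 and 15.9 CPM with LSD1i, against 24.3 and 29.2 CPM with vehicle (-0.60 ± 0.17, adjusted p = 0.0253), and its change was -0.34 without the 72 h pair. Its partners were not called, at -0.32 ± 0.12 for PES1 and -0.32 ± 0.12 for WDR12 (adjusted p = 0.0965 and 0.0901). All 3 PeBoW genes were below the vehicle level in both pairs. GRWD1, a chaperone of a ribosomal protein of the large subunit, had 39.3 and 30.2 CPM with LSD1i, against 52.1 and 52.4 CPM with vehicle (-0.60 ± 0.14, adjusted p = 0.0126). WDR74, the counterpart of yeast Nsa1, had 46.3 and 45.8 CPM with LSD1i, against 57.9 and 71.7 CPM with vehicle (-0.48 ± 0.13, adjusted p = 0.023). For both, the LSD1i libraries lay below both vehicle libraries. The other 60S genes missed the threshold, from -0.65 ± 0.21 for PPAN (adjusted p = 0.0573, on 111 to 186 reads per library) and -0.44 ± 0.16 for NOC2L to -0.10 ± 0.12 for NOC3L. NOC2L shares 13.4% of its exon length with the opposite-strand gene SAMD11, and reads over that stretch were counted for neither gene.

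Among 14 genes of the small subunit processome and 40S maturation, 4 were called lower, with a median of -0.29, and all 14 were below zero. RRP9, a protein of the U3 small nucleolar ribonucleoprotein, had 37.6 and 32.7 CPM with LSD1i, against 51.8 and 60.7 CPM with vehicle (-0.68 ± 0.15, adjusted p = 0.00846). IMP4 and IMP3 join U3 to the rRNA precursor. IMP4 had 54.6 and 57.3 CPM with LSD1i, against 79.3 and 87.1 CPM with vehicle (-0.57 ± 0.12, adjusted p = 0.00596). IMP3 had 56.8 and 62.4 CPM with LSD1i, against 80.9 and 87.7 CPM with vehicle (-0.50 ± 0.12, adjusted p = 0.0123). All 3 of these genes were called, and in each the LSD1i libraries lay below both vehicle libraries. TSR1, which guards the young 40S particle from early translation, had 47.6 and 38.9 CPM with LSD1i, against 63.2 and 57.5 CPM with vehicle (-0.49 ± 0.13, adjusted p = 0.0192), and 23.5% of its exon length is shared with the opposite-strand gene SRR. The remaining 10 were not called. BYSL and RRP12, factors of late 40S maturation, stood at -0.37 ± 0.13 and -0.39 ± 0.17 (adjusted p = 0.0762 and 0.136), and the nuclease NOB1, which makes the last cut of the small rRNA, at -0.10 ± 0.12.

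**Figure D2:**
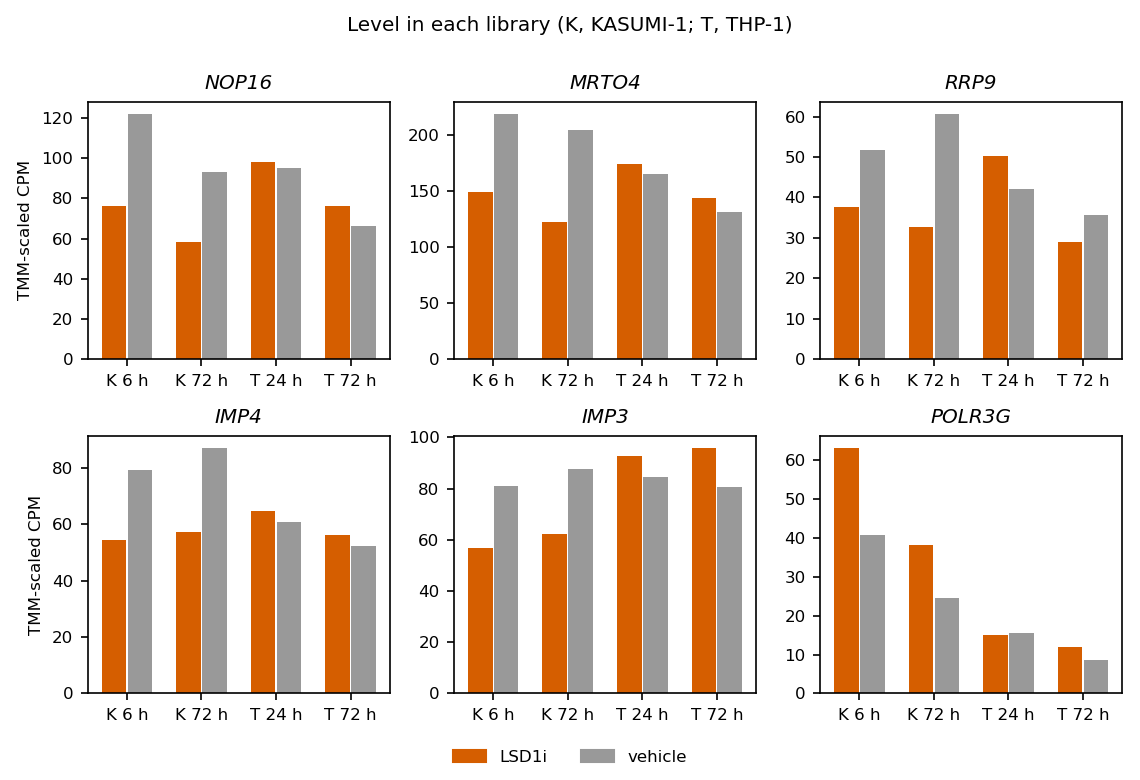
TMM-scaled CPM of 6 genes in each library (bars start at 0), with LSD1i left of vehicle at each time in KASUMI-1 (K) and THP-1 (T). NOP16, MRTO4, RRP9, IMP4 and IMP3 were lower with LSD1i in both KASUMI-1 pairs, and POLR3G was higher in both, at 63.2 and 38.3 CPM against 40.8 and 24.6 CPM.

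Of the 9 abundant nucleolar proteins and rRNA modification enzymes 1 was called. LYAR, a growth-linked nucleolar protein, had 99.6 and 67.3 CPM with LSD1i, against 138 and 91.4 CPM with vehicle and was the one gene called among the 6 nucleolar members (-0.45 ± 0.12, adjusted p = 0.0197), without the 6 h pair at -0.44 (adjusted p = 0.085). LYAR with LSD1i at 6 h (99.6 CPM) lay above its vehicle library at 72 h (91.4 CPM). NCL had 846 and 728 CPM with LSD1i, against 915 and 833 CPM with vehicle (-0.15 ± 0.15, adjusted p = 0.565). NPM1 had 3066 and 3401 CPM with LSD1i, against 3416 and 3299 CPM with vehicle (-0.06 ± 0.16, adjusted p = 0.879), lower with LSD1i at 6 h and slightly higher at 72 h, where total count scaling turned it to -0.04. Processed pseudogenes of NPM1 are known, and reads that also map to them were left out. None of the 3 modification enzymes was called. FBL had 446 and 457 CPM with LSD1i, against 477 and 598 CPM with vehicle (-0.24 ± 0.13, adjusted p = 0.26). DKC1, the pseudouridine synthase, had 238 and 188 CPM with LSD1i, against 283 and 223 CPM with vehicle (-0.25 ± 0.12, adjusted p = 0.2). NAT10, which acetylates the small rRNA, had 124 and 122 CPM with LSD1i, against 123 and 138 CPM with vehicle (-0.08 ± 0.14, adjusted p = 0.781). FBL and DKC1 were below vehicle in both pairs (FBL at 0.01 with total count scaling at 6 h), and NAT10 at 72 h alone.

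Among 5 polymerase subunits none was called lower and 1 was called higher, with a median of -0.15. POLR3G is the form of its subunit found in stem cells and tumours, in place of POLR3GL, and had 63.2 and 38.3 CPM with LSD1i, against 40.8 and 24.6 CPM with vehicle. It rose by 0.64 ± 0.15 on the log2 scale (1.55-fold, edgeR adjusted p = 0.00937), and each LSD1i library was above the vehicle library of its time. The LSD1i library at 72 h (38.3 CPM) lay below the vehicle library at 6 h (40.8 CPM). POLR1A, the catalytic subunit of RNA polymerase I, had 46.2 and 34.7 CPM with LSD1i, against 45.2 and 44.1 CPM with vehicle (-0.16 ± 0.15, adjusted p = 0.546). POLR1B, which forms the active site with it, had 111 and 104 CPM with LSD1i, against 119 and 107 CPM with vehicle (-0.07 ± 0.12, adjusted p = 0.769). For these 2 subunits the 6 h values of LSD1i and vehicle lay close together, and POLR1A was lower with LSD1i at 72 h. POLR1C, shared by RNA polymerases I and III, had 45.1 and 41.2 CPM with LSD1i, against 51.5 and 44.6 CPM with vehicle (-0.15 ± 0.12, adjusted p = 0.478). POLR1E, a subunit of RNA polymerase I, had 39.0 and 52.0 CPM with LSD1i, against 46.7 and 57.2 CPM with vehicle (-0.20 ± 0.12, adjusted p = 0.326). Neither was called, and both were below vehicle in both pairs, with a counting interval that held 0 for POLR1C at 72 h (-0.226 to 0.002).

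The second comparison asked the same in the resistant line. In THP-1 no member was called in either direction, while 2.85% of all genes were lower and 6.51% higher. None had an unadjusted p under 0.05 and DESeq2 also called none. The fitted changes ran from -0.20 for POLR1A to 0.22 for RRS1, with a median of 0.06, against -0.01 over all genes, and 30 of 42 were above zero. NOP16 had 98.0 and 76.4 CPM with LSD1i, against 94.8 and 66.4 CPM with vehicle at 24 and 72 h (0.12 ± 0.12, adjusted p = 0.655). MRTO4 had 174 and 143 CPM with LSD1i, against 165 and 131 CPM with vehicle (0.10 ± 0.12, adjusted p = 0.729). Both were slightly above vehicle in both pairs, the reverse of their position in KASUMI-1. For NOP16 at 24 h the counting interval held 0 (-0.01 to 0.11), and total count scaling turned the log2 ratio to -0.02. With that scaling MRTO4 stood at 0.01 and 0.005. IMP4 had 64.8 and 56.4 CPM with LSD1i, against 60.9 and 52.4 CPM with vehicle (0.10 ± 0.12, adjusted p = 0.741). IMP3 had 92.6 and 95.9 CPM with LSD1i, against 84.8 and 80.5 CPM with vehicle (0.19 ± 0.12, adjusted p = 0.426). EBNA1BP2 had 192 and 151 CPM with LSD1i, against 185 and 142 CPM with vehicle (0.07 ± 0.12, adjusted p = 0.826). These 3 too were above vehicle at both times, but with total count scaling IMP4 turned at 72 h (-0.02) and EBNA1BP2 at both times (-0.01 and -0.03). POLR3G had 15.1 and 12.1 CPM with LSD1i, against 15.5 and 8.67 CPM with vehicle (0.21 ± 0.15, adjusted p = 0.521), level with vehicle at 24 h and above it at 72 h.

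Of the other members that were called in KASUMI-1, RRP9, GRWD1 and BOP1 crossed the vehicle level between the 2 times in THP-1. RRP9 had 50.2 and 29.1 CPM with LSD1i, against 42.0 and 35.6 CPM with vehicle. GRWD1 had 54.7 and 38.4 CPM with LSD1i, against 47.1 and 45.0 CPM with vehicle. BOP1 had 22.6 and 14.3 CPM with LSD1i, against 21.3 and 19.1 CPM with vehicle. In all 3 the LSD1i library was the higher of the pair at 24 h and the lower at 72 h. For BOP1 at 24 h the log2 ratio of 0.08 had a counting interval that held 0 (-0.04 to 0.21). TSR1 had 44.6 and 36.1 CPM with LSD1i, against 44.6 and 38.4 CPM with vehicle. WDR74 had 48.1 and 34.9 CPM with LSD1i, against 44.0 and 35.6 CPM with vehicle. LYAR had 64.1 and 44.6 CPM with LSD1i, against 60.4 and 43.3 CPM with vehicle. In none of these 6 pairs was the log2 ratio beyond 0.32 in either direction. Of the abundant and enzymatic members NCL had 1608 and 1333 CPM with LSD1i, against 1492 and 1436 CPM with vehicle. NPM1 had 1703 and 1680.4 CPM with LSD1i, against 1778 and 1508 CPM with vehicle. FBL had 166 and 159 CPM with LSD1i, against 161 and 139 CPM with vehicle. The order of LSD1i and vehicle changed between the times in NCL and NPM1, in opposite ways, and FBL was above vehicle at both (at 24 h -0.02 with total count scaling). DKC1 had 174 and 134 CPM with LSD1i, against 165 and 139 CPM with vehicle. NAT10 had 91.9 and 55.6 CPM with LSD1i, against 76.2 and 71.9 CPM with vehicle. Both of these enzymes were above vehicle at 24 h and below it at 72 h. POLR1A had 42.2 and 31.6 CPM with LSD1i, against 40.8 and 43.0 CPM with vehicle. POLR1B had 66.3 and 49.5 CPM with LSD1i, against 53.7 and 46.3 CPM with vehicle. Of these, POLR1B was above vehicle at both times and POLR1A above it at 24 h and below it at 72 h. POLR1C had 67.0 and 49.6 CPM with LSD1i, against 59.3 and 47.5 CPM with vehicle. POLR1E had 73.1 and 61.9 CPM with LSD1i, against 73.8 and 69.0 CPM with vehicle. POLR1C was above vehicle at both times and POLR1E below it at both. The counting interval held 0 for FBL, POLR1A and POLR1E at 24 h and for POLR1C at 72 h. With total count scaling POLR1A turned at 24 h (-0.02), and POLR1B and POLR1C at 72 h (-0.04 and -0.07).

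The difference of response between the lines was tested in the same fit. This set the KASUMI-1 pairs at 6 and 72 h against the THP-1 pairs at 24 and 72 h. Line and early time cannot be told apart in it. The response in KASUMI-1 was below that in THP-1 for 40 of 42 genes, with a median difference of -0.29, against 0.02 over all genes tested. It passed the threshold for 4 genes, all lower in KASUMI-1, and for 0 in the other direction, where 3.07% and 2.62% of all genes did (edgeR's quasi-likelihood test). These were NOP16 (-0.80 ± 0.17, adjusted p = 0.0106), MRTO4 (-0.75 ± 0.17, adjusted p = 0.0176), IMP3 (-0.69 ± 0.17, adjusted p = 0.0239) and IMP4 (-0.67 ± 0.17, adjusted p = 0.0286). For RRP9 the difference was -0.66 ± 0.21 (adjusted p = 0.0769) and for POLR3G 0.43 ± 0.21 (adjusted p = 0.251). The calls of all 4 ended without the THP-1 24 h pair (adjusted p = 0.0903 to 0.202), without the THP-1 72 h pair (0.155 to 0.212) and without the pair term, and 2 remained without the KASUMI-1 72 h pair. Their sizes stayed between -0.63 and -0.87 in these fits. Without the KASUMI-1 6 h pair 9 genes were called. In the fit with 1 LSD1i coefficient over all 4 pairs, 0 members were called, where 0.785% of genes were lower and 3.8% higher. POLR3G and BOP1 had an unadjusted p under 0.05 there, and DESeq2 called 0.

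**Figure D3:**
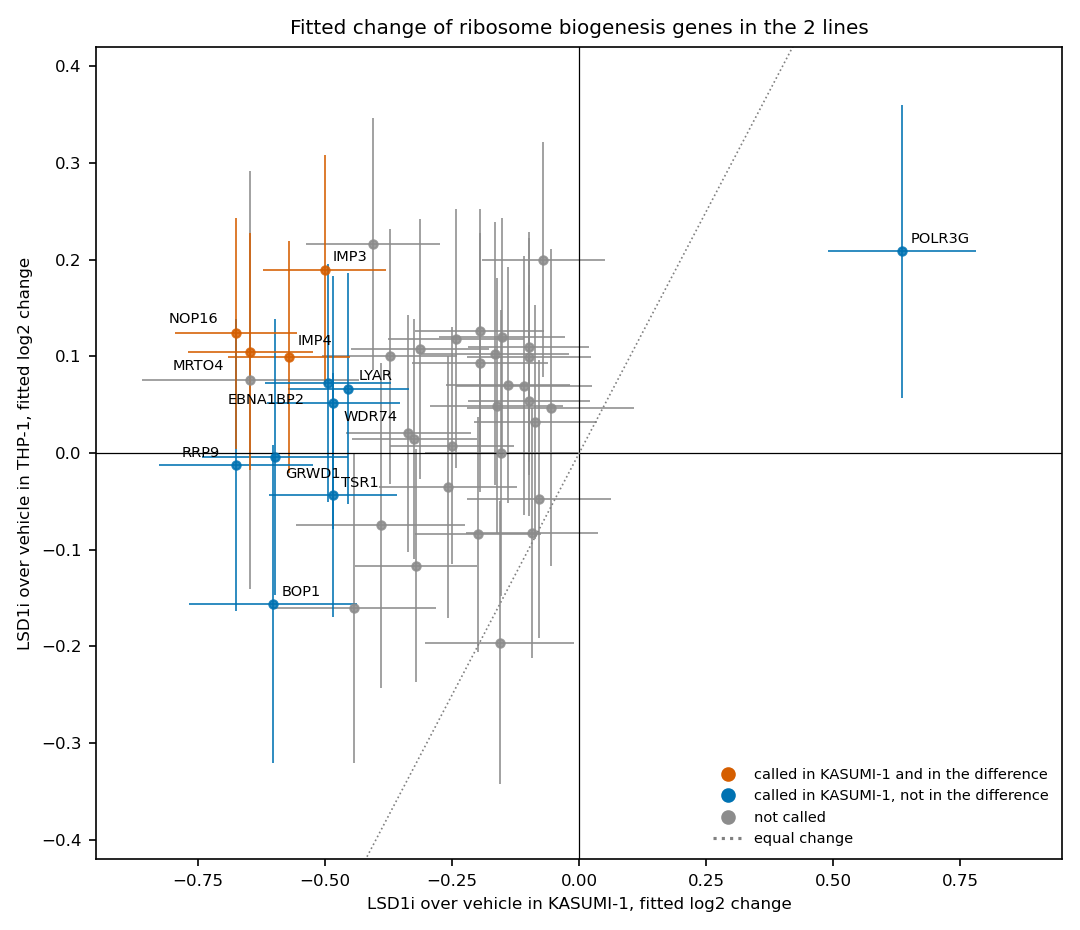
Fitted log2 change with LSD1i in KASUMI-1 (horizontal) against that in THP-1 (vertical) for the 42 genes, with standard errors as lines, the dotted line marking equal change. NOP16, MRTO4, IMP3 and IMP4 lie at -0.50 to -0.68 in KASUMI-1 and at 0.10 to 0.19 in THP-1, and POLR3G at 0.64 and 0.21.

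Each pair was also described on its own, without a test since it held 1 library per agent. At 6 h in KASUMI-1 the LSD1i library was below vehicle by at least 0.32 on the log2 scale, with a counting interval off equality, for 15 of 42 genes and above it for 1, where 9.25% and 11.4% of all genes were. At 72 h the counts were 22 and 1, against 15.9% and 20.5% of all genes. By the interval alone 37 genes were lower and 1 higher at 6 h (25.6% and 21.8% of all genes) and 34 were lower and 2 higher at 72 h (24.3% and 29.9%). The 14 genes of 60S maturation were all lower by this rule at both times. RRP1B, of the same role but outside the 42, was level with vehicle in KASUMI-1 at 6 h (0.03) and higher at 72 h (0.38). With total count scaling 34 and 41 of the 42 ratios were below zero at 6 and 72 h, where 39 and 39 were with TMM. In THP-1 at 24 h 0 genes were lower by at least 0.32 and 2, RRS1 and RRP12, higher (8.66% and 12.1% of all genes), and at 72 h 5 were lower and 1 higher (14.3% and 13.6%). By the interval alone 2 were lower and 29 higher at 24 h (21.6% and 26.2% of all genes), and 14 lower and 12 higher at 72 h (25.9% and 26.7%). There 12 and 34 ratios were below zero at 24 and 72 h with total count scaling, and 5 and 23 with TMM. The 5 lower by at least 0.32 at 72 h were NOC2L, RRP12, POLR1A, BOP1 and NAT10, and the higher one was POLR3G. The median log2 ratio was -0.20 and -0.35 in KASUMI-1 at 6 and 72 h, and 0.10 and -0.01 in THP-1 at 24 and 72 h.

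The ratio of LSD1i to vehicle was also compared between the times of a line. In KASUMI-1 it was lower at 72 h than at 6 h for 20 genes and higher for 5 (16.6% and 23.6% of all genes, by counting interval), with a median change of -0.07. NOC2L, the counterpart of the yeast 60S factor Noc2, had 59.0 and 53.9 CPM with LSD1i, against 66.1 and 89.1 CPM with vehicle. PPAN had 3.69 and 3.34 CPM with LSD1i, against 4.88 and 6.23 CPM with vehicle. The log2 ratio changed by -0.56 (-0.68 to -0.44) for NOC2L, -0.55 (-0.76 to -0.34) for BOP1, -0.49 (-0.95 to -0.03) for PPAN and -0.43 (-0.57 to -0.28) for RRP9 (95% counting intervals), the 4 largest changes. In these 4 genes the LSD1i value was lower at 72 h than at 6 h and the vehicle value higher. For PPAN the counting interval of the LSD1i change between the times held 0 (-0.49 to 0.20). In THP-1 the ratio was lower at 72 h than at 24 h for 22 genes and higher for 8 (20.7% and 19.5% of all genes), with a median change of -0.14. RRP12 had 47.3 and 27.0 CPM with LSD1i, against 37.5 and 38.1 CPM with vehicle. NOC2L had 101 and 61.2 CPM with LSD1i, against 88.3 and 87.3 CPM with vehicle. For both, the vehicle libraries were level between the times and the LSD1i library at 72 h was the lowest of the 4. The change was -0.84 (-0.98 to -0.69) for RRP12, -0.70 (-0.80 to -0.60) for NOC2L, -0.64 (-0.75 to -0.54) for NAT10 and -0.55 (-0.69 to -0.41) for RRP9. RRP12 in KASUMI-1 had 52.5 and 34.8 CPM with LSD1i, against 60.4 and 52.2 CPM with vehicle, and PPAN in THP-1 3.69 and 3.14 CPM with LSD1i, against 3.53 and 2.95 CPM with vehicle.

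**Figure D4:**
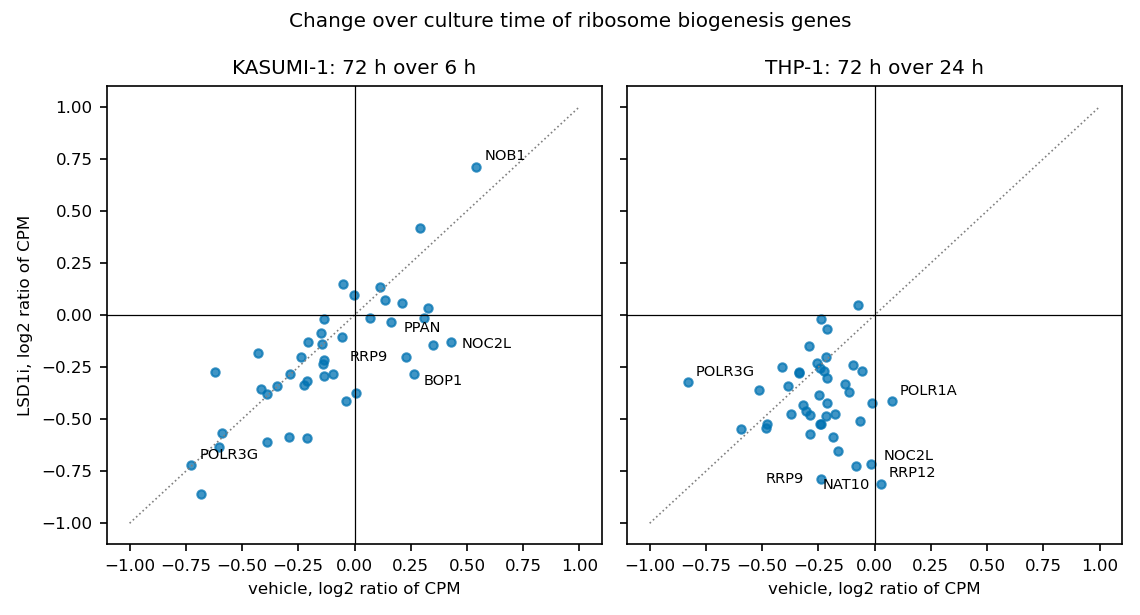
Log2 ratio of 72 h over the early time for the 42 genes, vehicle on the horizontal and LSD1i on the vertical axis, KASUMI-1 on the left and THP-1 on the right, the dotted line marking equal change. In THP-1 most genes lie below zero on both axes, with medians of -0.42 with LSD1i and -0.24 with vehicle, while NOC2L, RRP12 and NAT10 lie low on the LSD1i axis and near zero on the vehicle axis.

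The level of these genes also changed between the times under the same agent. With LSD1i, culture time and length of exposure cannot be told apart. In KASUMI-1 28 genes were lower and 6 higher at 72 h than at 6 h with LSD1i (22.9% and 28.1% of all genes, by counting interval), and 25 were lower and 12 higher with vehicle (25% and 23.1%). In THP-1 40 were lower and 0 higher at 72 h than at 24 h with LSD1i (25.2% and 22.8% of all genes), and 36 were lower and 0 higher with vehicle (23.4% and 25.2%). The medians were -0.21 with LSD1i and -0.14 with vehicle in KASUMI-1, and -0.42 and -0.24 in THP-1. POLR3G was among the steepest, with a vehicle log2 ratio of -0.73 in KASUMI-1 and -0.83 in THP-1, and NOB1 ran the other way in KASUMI-1, at 0.71 with LSD1i and 0.54 with vehicle. There was 1 library per time, so these values have no replicate check.

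The lines were then compared at baseline, vehicle KASUMI-1 over vehicle THP-1. Of the 42 genes 21 were higher and 4 lower in KASUMI-1 (edgeR's quasi-likelihood test on the 4 vehicle libraries), where 26.4% and 30.1% of all 15456 genes tested were, and the median difference was 0.47, against -0.00 over all genes. FBL had the largest difference, 1.83 ± 0.18 (adjusted p = 1.08e-05), with 477 and 598 CPM in KASUMI-1 at 6 and 72 h, against 161 and 139 CPM in THP-1 at 24 and 72 h. All 3 modification enzymes were higher, with NAT10 at 0.81 ± 0.16 and DKC1 at 0.73 ± 0.18. POLR3G (1.43 ± 0.31), POLR1B (1.17 ± 0.17), LYAR (1.14 ± 0.23), DDX21, an RNA helicase that couples RNA polymerase I to processing (1.13 ± 0.18), and NPM1 (1.03 ± 0.15) were higher too. The 4 lower genes were RCL1 (-1.42 ± 0.19), NCL (-0.75 ± 0.14), POLR1E (-0.46 ± 0.17) and HEATR1 (-0.44 ± 0.16). RCL1 is needed in yeast to cut the precursor for the small subunit, and HEATR1 is a factor of early precursor transcription. NCL had 915 and 833 CPM in vehicle KASUMI-1, against 1492 and 1436 CPM in vehicle THP-1, without overlap. NOP16 (0.41 ± 0.21) and IMP3 (0.02 ± 0.16), whose response differed between the lines, were not called at baseline, while MRTO4 (0.51 ± 0.17) and IMP4 (0.55 ± 0.17) were higher in KASUMI-1. In place of 25 genes 11 were called without the THP-1 72 h library, and the early times of the lines differ.

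**Figure D5:**
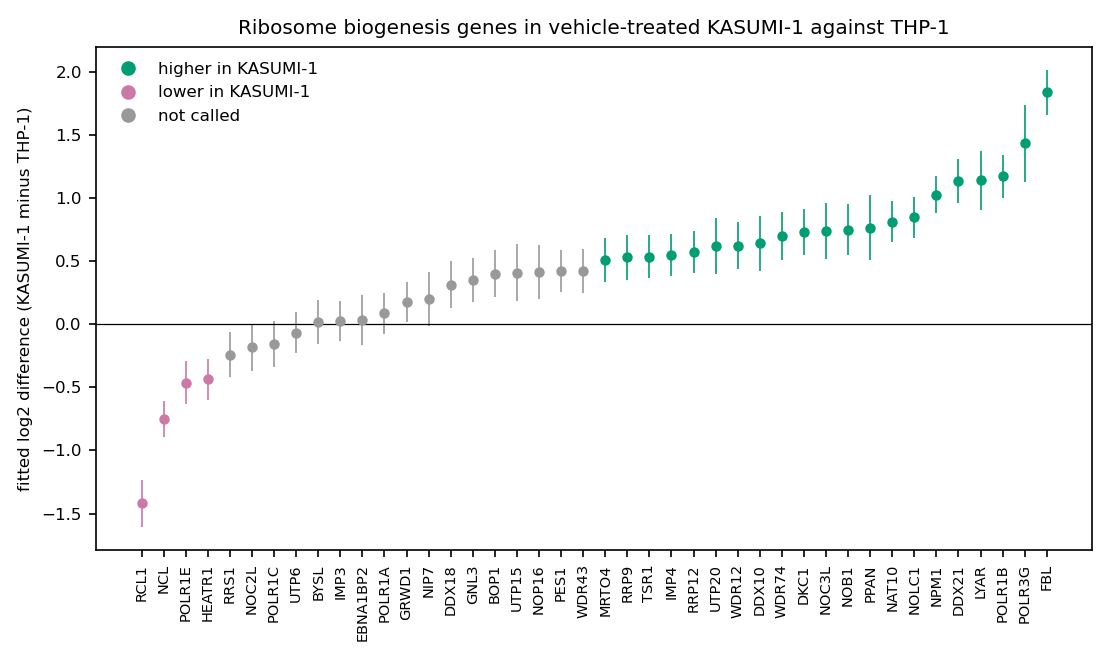
Fitted log2 difference of vehicle KASUMI-1 minus vehicle THP-1 for the 42 genes in rising order, with standard errors as lines, coloured by call. The values run from -1.42 for RCL1 to 1.83 for FBL, and 34 of the 42 lie above zero.

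Further genes of the pathway, outside the 42, were counted in the same fits, all of those listed but RRP7A and TAF1D, which had no row of that name. Of 77 other ribosome biogenesis genes 13 (16.9%) were lower with LSD1i and 0 higher in KASUMI-1, with a median of -0.19. Of all genes 5.09% were lower and 7.02% higher there. They included the helicase DDX49 (-0.55 ± 0.12), WDR18, a subunit of a complex of 60S maturation (-0.74 ± 0.17), NHP2, a core protein of the pseudouridylation particles (-0.49 ± 0.12), and RRP36 (-0.47 ± 0.12). Of 29 other subunits and initiation factors of RNA polymerases I and III 3 were lower, among them POLR1H (-0.45 ± 0.13) and POLR1G (-0.48 ± 0.14), and 0 higher. Of 14 genes of the nuclear RNA exosome, which trims rRNA ends, 3 were lower, EXOSC4 (-0.74 ± 0.14), EXOSC5 (-0.57 ± 0.14) and EXOSC7 (-0.49 ± 0.13), and 0 higher. In THP-1 PAK1IP1 (0.66 ± 0.13) and the RNA polymerase I cofactor TCOF1 (0.52 ± 0.14) were higher, and 0 of these 120 genes lower. Of all genes 6.51% were higher and 2.85% lower in THP-1. The difference between the lines passed for PAK1IP1 (-0.96 ± 0.18), PNO1 (-0.65 ± 0.17), NHP2 (-0.63 ± 0.17), DDX49 (-0.61 ± 0.17) and POLR3K (-0.75 ± 0.20), all lower in KASUMI-1. These were 4 of the 77 (5.19%), 1 of the 29 (3.45%) and 0 of the 14 exosome genes. Of all genes 3.07% passed in this direction and 2.62% in the other. RRP1B, a nucleolar partner of a protein phosphatase, was counted under KIAA0179 and had 140.1 and 162 CPM with LSD1i, against 138 and 125 CPM with vehicle in KASUMI-1 (0.20 ± 0.13, adjusted p = 0.346) and 66.1 and 51.9 CPM with LSD1i, against 46.0 and 42.8 CPM with vehicle in THP-1 (0.40 ± 0.13, adjusted p = 0.0635), above vehicle in all 4 pairs.

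Markers of proliferation and of monocytes were counted in the same fits. Of all genes 5.09% were lower and 7.02% higher with LSD1i in KASUMI-1, and 2.85% and 6.51% in THP-1. Of 30 S phase and DNA replication genes 7 were lower and 0 higher with LSD1i in KASUMI-1, with a median of -0.36, and in THP-1 1 was lower, POLE (-0.48 ± 0.13), with a median of -0.06. Their median log2 ratio was -0.10 and -0.51 in KASUMI-1 at 6 and 72 h, against -0.20 and -0.35 over the 42 genes and -0.36 and -0.63 over the 14 of 60S maturation. The 4 S phase genes with the smallest adjusted p in KASUMI-1 were FEN1 (-0.61 ± 0.14), GINS2 (-0.47 ± 0.12), TK1 (-0.57 ± 0.16) and CDC45 (-0.50 ± 0.15). Of 15 monocyte and macrophage markers 13 could be tested, and 6 were higher with LSD1i in KASUMI-1, led by CD86, LY96, MS4A7 and LYZ, and 9 in THP-1, led by CD86, LY96, ITGAM and LYZ. None was called lower, but 3 of the 13 were below zero in the KASUMI-1 fit (lowest -1.61) and 1 in that of THP-1. Their summed level was 230 and 519 CPM in LSD1i KASUMI-1 cells, against 80.3 and 86.7 CPM in vehicle KASUMI-1 cells, and 7330 and 19684 CPM in LSD1i THP-1 cells, against 1578 and 975 CPM in vehicle THP-1 cells. Without the 2 most abundant markers the KASUMI-1 sums were 88.8 and 98.8 CPM with LSD1i, against 44.4 and 42.5 CPM with vehicle. In THP-1 they were 1172 and 3048 CPM with LSD1i, against 436 and 326 CPM with vehicle. MRC1 had no read in any library, FCGR3A was at or under 0.06 CPM in all 8, and CD14 at or under 0.09 CPM in KASUMI-1. The part of proliferation and of maturation in the changes of the 42 genes was not tested. Of 12 progenitor markers CTSG (-0.55 ± 0.16) was lower and SOX4 (0.72 ± 0.13) and ERG (0.63 ± 0.12) were higher with LSD1i in KASUMI-1, while KIT (-2.11 ± 0.26), CTSG (-1.28 ± 0.17) and PRTN3 (-0.70 ± 0.18) were lower and SOX4 (0.71 ± 0.15) was higher in THP-1. Of the 4 erythroid and megakaryocyte markers and the 6 lymphoid markers that could be tested, 0 were called in either line (edgeR).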

How the data were processed

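Bulk RNA of the 8 libraries was sequenced as TruSeq libraries made from total RNA, per the labels' protocols. The values are raw read counts per gene name, deposited by the authors in 1 table. Per the file headers, reads over exons were summed by gene name with featureCounts 1.5.2 on an Ensembl annotation of NCBI36, with no option for strand or for reads that map to several places or overlap several genes, so such reads were not counted and sense and antisense reads were not separated. Further tools in the submitters' processing notes are TopHat2 2.0.10, FastQC 0.10.0 and edgeR, with the build hg18. Samples were grouped by the line, agent and time in their titles, and the LSD1i and vehicle libraries of 1 line and time formed a pair; the labels carry no replicate number.

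From these counts, genes were kept by filterByExpr (minimum count 10), scaled by TMM and tested on the whole table with edgeR 4.0.16 in R 4.3.3. The quasi-likelihood test had a term for each pair and an LSD1i coefficient for each line (2 residual degrees of freedom). In this fit the spread of each gene was moderated toward that of all genes tested (median prior degrees of freedom 15.6). Benjamini-Hochberg adjusted p under 0.05 was the threshold. The difference of the coefficients, 1 coefficient over all pairs and the 4 vehicle libraries were tested likewise. Standard errors are the change divided by the square root of the quasi-likelihood F. Within a pair or between times, log2 ratios of CPM (prior count 2) carry 95% intervals that cover counting error only. Reads are not unique molecules. The procedure was tested on simulated data. The alternatives were RLE scaling, DESeq2 1.42.0, other count minimums, no replicate block, leaving out each pair, total count scaling and another prior count.

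The members and gene lists were chosen with earlier results of these data known. Any member could be named. Values by library were given for members called in a line or in the difference, for NCL, NPM1, FBL, DKC1, POLR1A, POLR1B, POLR1C, POLR1E and POLR3G, and for the 4 with the largest change between times in each line. Of other lists up to 4 genes called in a line with the smallest adjusted p were named, leaving out 1 gene that is not reported here, and those called in the difference for the pathway lists.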

Additional observations from a re-analysis of the deposited data

Results flagged for a closer look

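The response to LSD1i differed between the lines, by the test of the difference itself, for 4 of the 42 genes (9.52%). Because the early times differ, 6 h in KASUMI-1 and 24 h in THP-1, line and early time cannot be told apart here. Of all genes 3.07% passed with a lower response in KASUMI-1 and 2.62% with a higher one. None of the 4 calls held without the term for the pairs. The difference of the fitted log2 change, KASUMI-1 minus THP-1, was -0.80 for NOP16, -0.75 for MRTO4, -0.69 for IMP3 and -0.67 for IMP4 (edgeR adjusted p = 0.0106, 0.0176, 0.0239 and 0.0286). All 4 were lower with LSD1i in both KASUMI-1 pairs. In THP-1 all 4 lay above vehicle in both pairs, but for NOP16 at 24 h the counting interval held 0 (-0.01 to 0.11). With total count scaling NOP16 in THP-1 at 24 h and IMP4 in THP-1 at 72 h each had a log2 ratio of -0.02. The groups held too few libraries to look for a single library far from the others.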

How the results depend on the processing

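Of the 12 calls in KASUMI-1, 0 remained with no replicate block (10 at an unadjusted p under 0.05), and adjusted p-values there ran from 0.115 to 0.433. Leaving out a pair gave 1 to 14 calls, the lowest without the KASUMI-1 72 h pair. In THP-1 the count was 0 under all 9 alternatives (with the 24 h pair of THP-1 left out, 4 genes had an unadjusted p under 0.05). For the difference, 4 calls became 0 with no replicate block and 0 to 9 when a pair was left out. Over all pairs 1 gene was called with no filter, and 0 to 1 when a pair was left out. The 25 calls between vehicle lines ran from 11 to 25 without one library. With total count scaling the median log2 ratio was -0.090 in KASUMI-1 at 6 h and -0.13 in THP-1 at 72 h, where the median of all genes was 0.09 and -0.13. The cause of these changes was not tested. RLE scaling, DESeq2 and a minimum count of 50 kept each count within 1.5 times, and none of the calls in KASUMI-1 or in the difference changed direction in these fits, without the pair term or with a pair left out. Total count scaling, applied to the ratios within pairs, turned 5 and 2 of 42 ratios in KASUMI-1 at 6 and 72 h and 7 and 11 in THP-1 at 24 and 72 h. The pairs come from line and time in the labels, and a lone pair was assumed to vary like the pairs of the other line. PPAN, at 111 to 186 reads, was the member most limited by depth, and with 2 pairs per line the spread rests on few libraries.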
